A study of Mus musculus with 16 samples.

Results

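The 10 genes of brain endothelial cells and the blood-brain barrier followed here in whole brain were the caveolin genes Cav1 and Cav2, the organic anion transporter genes Slco1a4 and Slco1c1, the tight junction genes Cldn5 and Ocln, the efflux pump gene Abcb1a, the glucose transporter gene Slc2a1, the lipid transporter gene Mfsd2a and the VEGF receptor gene Flt1. They were taken by gene symbol, and all 10 were found among the 24062 genes of the count table and among the 23991 genes of the FPKM table. The set was chosen by the read counts of Cav2 and Slco1a4, which were lower in the treated groups than in the water only group, so these values are described without a test, and the other 8 genes were tested. The study asked how nicotine taken in adolescence affects ethanol drinking and brain gene expression. RNA was sequenced from the whole brain, cerebellum included, of 16 female C57BL/6J mice killed on postnatal day 45, with 4 mice and 4 libraries per group. Mice of the water only group (WW) had tap water throughout. Mice of the nicotine only group (NW) had tap water with 200 µg/ml nicotine freebase for 22 h per day over 6 days and then during the 4 further days. Mice of the Water-Ethanol group had water in place of nicotine and were offered 20% v/v ethanol in those last 4 days by drinking-in-the-dark, in which a single tube is offered early in the dark phase, for 2 h per session and for 4 h in the last session. Mice of the NE group had nicotine and ethanol on the same schedules. Brains were taken after the last session, so NW and NE mice had had no nicotine on offer for 4 h. Each mouse set its own intake by drinking, which was not analysed here, and each library mixes all cell types and regions of a brain.

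The blood-brain barrier is formed by the endothelial cells of brain capillaries, which are sealed to each other by tight junctions and move few vesicles from blood to brain. These cells feed the brain through carriers for glucose, amino acids, lactate, thyroid hormone and lipids and pump many drugs back into the blood. Pericytes and astrocyte endfeet surround them, and VEGF and WNT signals shape the vessels and their barrier properties. Nicotine and ethanol both cross this barrier freely.

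Cav2 and Slco1a4 each have a close relative among the 10 genes near them on mouse chromosome 6. On GRCm38, the build of the deposited tables, Cav2 (ENSMUSG00000000058) spans chr6:17281185-17289130 on the plus strand with 3 exons, and Cav1 (ENSMUSG00000007655) lies downstream of it at chr6:17306335-17341328 on the same strand, also with 3 exons. Slco1c1 (ENSMUSG00000030235) spans chr6:141524386-141570177 on the plus strand with 15 exons, and Slco1a4 (ENSMUSG00000030237) spans chr6:141805440-141856171 on the minus strand with 17 exons. Slco1b2, at chr6:141629518-141686635, lies between Slco1c1 and Slco1a4. The exons of the 10 genes overlap no exon of another gene in the count table. The 250 bases before the RefSeq start of these 4 genes (GRCm38.p6) are shown because each pair sets a gene that was lower in the treated groups beside a neighbour of its own family. Capitals mark the core letters of ETS factor motifs, GGAA or TTCC on the other strand, since ETS factors such as ERG are active in endothelial genes. The stretches are chr6:17280935-17281184 (plus strand) for Cav2, chr6:17306085-17306334 (plus) for Cav1, chr6:141856221-141856470 (minus) for Slco1a4 and chr6:141524104-141524353 (plus) for Slco1c1, and each is written 5′ to 3′ on the strand of its gene.
Cav2: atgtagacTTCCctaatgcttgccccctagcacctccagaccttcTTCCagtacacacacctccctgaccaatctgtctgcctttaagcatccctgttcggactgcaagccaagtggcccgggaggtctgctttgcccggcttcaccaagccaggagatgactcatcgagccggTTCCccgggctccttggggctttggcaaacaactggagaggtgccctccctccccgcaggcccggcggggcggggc
Cav1: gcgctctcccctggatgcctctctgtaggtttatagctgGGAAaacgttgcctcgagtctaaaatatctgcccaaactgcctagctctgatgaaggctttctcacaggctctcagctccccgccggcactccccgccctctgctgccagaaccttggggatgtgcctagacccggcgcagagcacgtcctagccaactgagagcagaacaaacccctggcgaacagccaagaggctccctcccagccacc
Slco1a4: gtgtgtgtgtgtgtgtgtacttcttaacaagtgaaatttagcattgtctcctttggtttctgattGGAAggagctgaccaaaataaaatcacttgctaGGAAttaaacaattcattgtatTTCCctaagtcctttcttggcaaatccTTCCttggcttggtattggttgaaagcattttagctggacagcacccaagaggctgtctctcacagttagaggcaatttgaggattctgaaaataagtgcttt
Slco1c1: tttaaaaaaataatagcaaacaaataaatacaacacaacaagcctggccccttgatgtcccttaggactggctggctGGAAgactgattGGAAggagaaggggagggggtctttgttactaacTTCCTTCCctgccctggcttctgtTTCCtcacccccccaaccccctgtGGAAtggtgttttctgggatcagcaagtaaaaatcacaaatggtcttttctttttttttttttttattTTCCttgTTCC
The capital letters occur 3 times before Cav2, 1 time before Cav1, 4 times before Slco1a4 and 8 times before Slco1c1. Of 32851 RefSeq promoters of this length, 93.4% hold the ETS core at least once, with a median of 3 matches. The letters CTTTG or CAAAG, the core of TCF/LEF motifs through which WNT signals act, occur 2 times before Cav2, 0 times before Cav1 and 1 time before each of the Slco genes, and 48.6% of all promoters hold them. The promoters of the caveolin genes hold 10 CG dinucleotides each and those of the Slco genes 0, while 92.1% of all promoters hold at least 1. The members of each pair therefore resembled each other in CG content. These matches are letters only and mark no measured site.

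The libraries had 27100352 to 32880979 counted reads (median 29448284), and each of the 10 genes had between 391 and 3472 reads in each mouse. Counting error was at most 5.06% of a single value, for Ocln in NE replicate 4, and the SD within groups, pooled over the 4 groups, was 3.43% (Abcb1a) to 12.3% (Cav1). Values below are read counts normalized to a common library size. Nothing in the labels says that mice of a group shared a litter or a day. Defining endothelial genes were present in every mouse: FPKM, a level per kilobase of transcript, was 7.2 to 8.83 for Pecam1 and 5.41 to 7.03 for Cdh5. Gabra6, a gene of cerebellar granule cells, had 1070 normalized counts in WW replicate 4 and 1655 in NW replicate 3 against 3423 to 4487 in the other mice. Counts of list genes called against WW without WW replicate 4 are given with the lists. Without that mouse, edgeR called 2.20% of 15411 genes lower and 2.97% higher in Water-Ethanol, and 0.878% of 15381 genes lower and 0.962% higher in NE, so counts without it are read against these shares. In whole brain, fewer endothelial cells and less RNA per endothelial cell cannot be told apart.

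Per kilobase, Slc2a1 was the highest of the 10 genes and Ocln the lowest in every mouse. Over the 16 mice, mean FPKM was 41.6 for Slc2a1, 33.5 for Cldn5, 24.6 for Slco1c1, 19.6 for Slco1a4, 16.7 for Cav2, 15.1 for Mfsd2a, 11.8 for Flt1, 10.5 for Abcb1a, 7.61 for Cav1 and 5.04 for Ocln. Each gene was above the next in all 16 mice, except that Slco1a4 was above Cav2 in 15 and Cav2 above Mfsd2a in 11. The order of Cav2 and Mfsd2a therefore was not separated by their spread. In WW, FPKM of Cav2 was 18.7 to 21.8 and of Mfsd2a 14.5 to 15.6. In NW the ranges met, at 11.8 to 17 for Cav2 and 12.6 to 14.9 for Mfsd2a. Only the comparison per length allows levels of different genes to be set side by side.

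**Figure D1:**
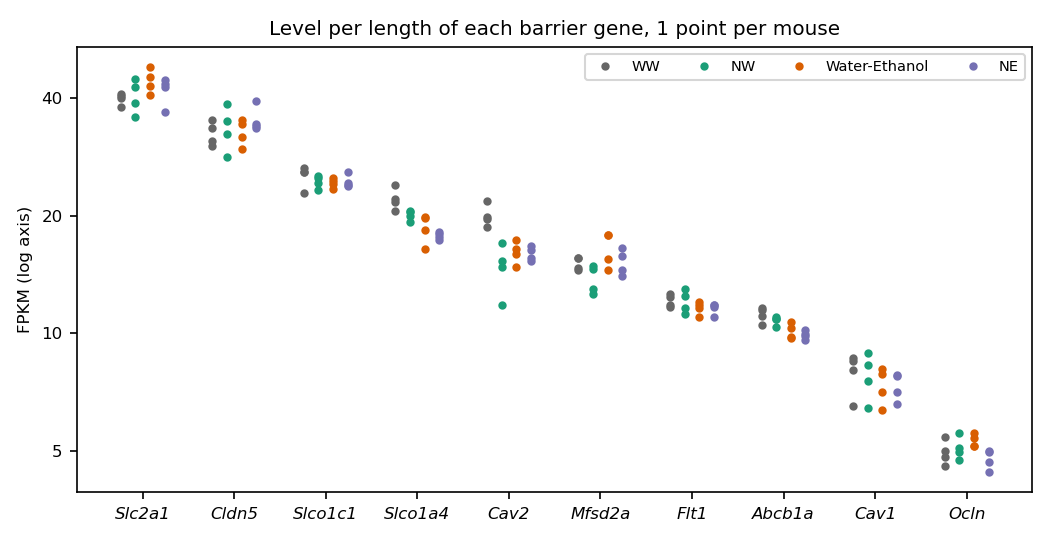
FPKM of the 10 barrier genes, ordered by their mean over 16 mice, on a log axis, with 1 point per mouse and a colour per group. Slc2a1 is the highest and Ocln the lowest, from means of 41.6 to 5.04 FPKM, and the points of Cav2 and Mfsd2a lie in the same range.

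Caveolins coat the caveolae, small pits of the plasma membrane that carry cargo across endothelial cells, and caveolin-2 is built into them together with caveolin-1. Normalized counts of Cav2 in replicates 1 to 4 were 1476, 1486, 1405 and 1617 in WW and 858, 1142, 1103 and 1282 in NW. They were 1098, 1220, 1178 and 1277 in Water-Ethanol and 1242, 1146, 1158 and 1218 in NE. All 12 treated mice lay below the lowest WW mouse, and NW replicate 1 was the lowest of all. The log2 fold change of Cav2 against WW was -0.45 in NW and, in the groups with ethanol, -0.32 in Water-Ethanol and -0.33 in NE, which are changes of -26.6%, -20.1% and -20.2%. A separation of this kind, with all 4 treated mice below all 4 WW mice, was seen for 4.24% of the genes tested in NW, and for 5.68% and 5.51% in Water-Ethanol and NE. Without NW replicate 1 the NW value was -0.35, and without NW replicate 4 it was -0.53. Without WW replicate 4, the highest WW mouse for Cav2, the value was -0.28 in Water-Ethanol and -0.29 in NE. The transcript of Cav2 had a GC content of 37.5%, and 1.53% of the genes tested had a lower one. With a correction of each library for GC content the log2 fold changes were -0.31, -0.29 and -0.25.

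Cav1, the caveolin that caveolae cannot form without, varied more between mice and had no such separation. Its normalized counts in replicates 1 to 4 were 451, 603, 584 and 552 in WW and 562, 614, 447 and 522 in NW. They were 552, 539, 442 and 483 in Water-Ethanol and 482, 546, 454 and 540 in NE. The groups overlapped throughout. By edgeR's quasi-likelihood test the log2 fold change against WW was -0.03 in NW (95% interval -0.26 to 0.21, adjusted p = 0.961), -0.12 in Water-Ethanol (-0.32 to 0.09, adjusted p = 0.526) and -0.12 in NE (-0.32 to 0.08, adjusted p = 0.549). These intervals hold 0 and reach down to -0.32 in both groups with ethanol, close to the values of Cav2 there. The ratio of Cav2 to Cav1 counts was 2.77 ± 0.41 (SD, n = 4) in WW, 2.08 ± 0.465 in NW, and in Water-Ethanol and NE it was 2.39 ± 0.326 and 2.37 ± 0.232, with overlap of each treated group and WW.

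**Figure D2:**
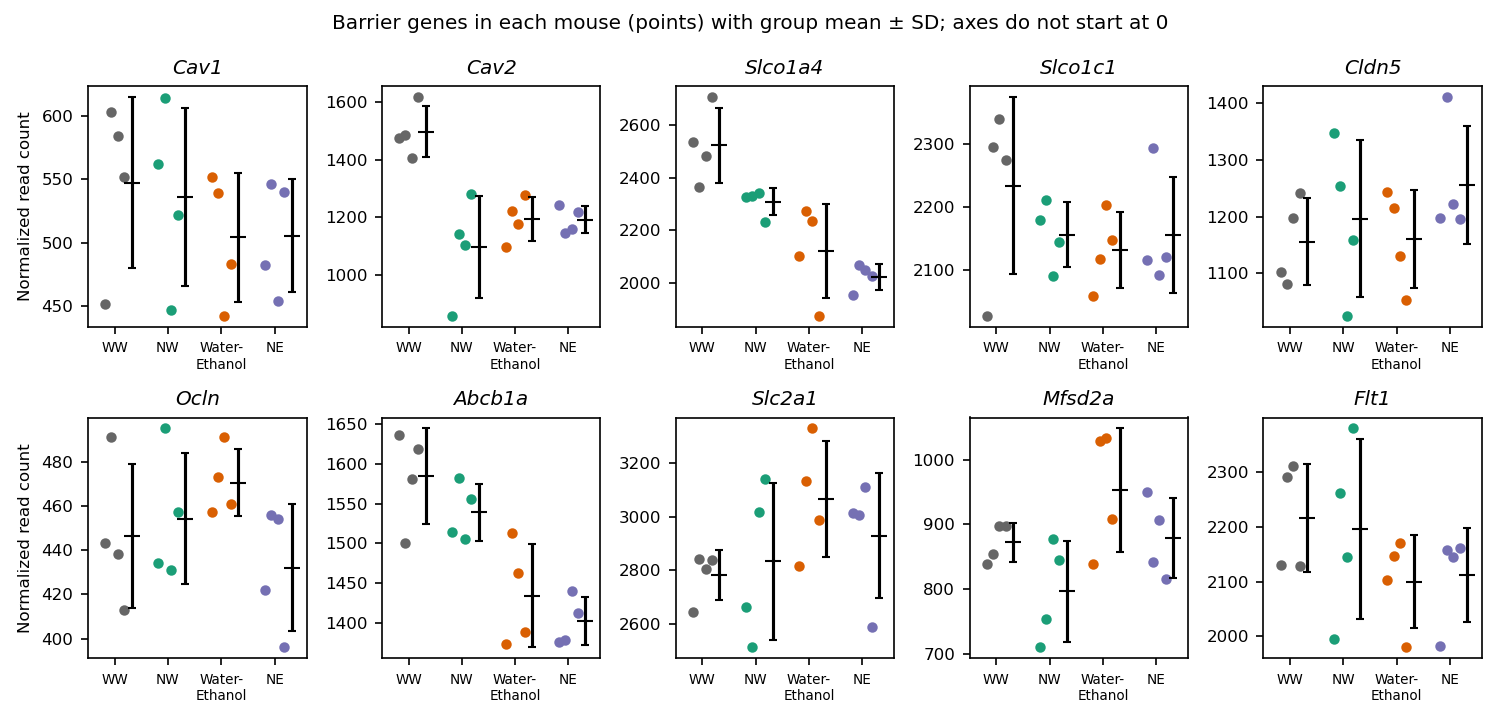
Normalized read counts of the 10 barrier genes in each mouse (points) for the 4 groups, with the group mean and SD in black, and vertical axes that do not start at 0. All treated mice lie below the WW mice for Cav2 and Slco1a4, while the groups overlap for Cav1, Slco1c1, Cldn5 and Flt1.

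Slco1a4 encodes a transporter of organic anions, bile acids and steroid conjugates in the endothelial membrane. Its normalized counts in replicates 1 to 4 were 2536, 2365, 2483 and 2705 in WW and 2327, 2332, 2343 and 2232 in NW. They were 2102, 2274, 2236 and 1877 in Water-Ethanol and 1956, 2070, 2049 and 2027 in NE. All treated mice lay below all WW mice, but the gap between the highest NW mouse and the lowest WW mouse was narrow, and the highest NE mouse lay below the lowest NW mouse. The log2 fold change against WW was -0.13 in NW, and in Water-Ethanol and NE it was -0.25 and -0.31, which are changes of -8.38%, -15.6% and -19.6%. After the GC correction these were -0.03, -0.21 and -0.25, at a transcript GC content of 40.3%, so in NW the value depended on it. Without WW replicate 4, the highest WW mouse for this gene too, the value was -0.09 in NW and -0.28 in NE.

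The treated groups could be compared with each other for Slco1a4 and Cav2 without the WW mice, although the same treated mice had entered the choice of these genes. Slco1a4 was lower in NE than in NW in 4 of 4 mice, at -0.19 on the log2 scale (standard error 0.0414, 95% interval -0.28 to -0.10). These mice entered the choice of Slco1a4, so its p-values in this comparison are descriptive and give no independent support. The exact two-sided permutation p was 0.0286, the smallest that 4 against 4 mice allow. Across 15361 genes edgeR's quasi-likelihood test gave an adjusted p = 0.179, which did not pass the threshold of 0.05. In that comparison 3.03% of genes had all NE mice below all NW mice, and 0% passed the adjusted threshold. DESeq2, a second count model, gave an adjusted p = 0.0175 for it, and the value after the GC correction was -0.23 (edgeR adjusted p = 0.155). Between NE and Water-Ethanol the log2 fold change of Slco1a4 was -0.07 (-0.18 to 0.05, edgeR adjusted p = 0.864). Cav2 had a log2 fold change of 0.12 for NE against NW (-0.09 to 0.32, edgeR adjusted p = 0.643), 0.12 for Water-Ethanol against NW (-0.09 to 0.33, adjusted p = 0.547) and -0.00 for NE against Water-Ethanol (-0.11 to 0.10, adjusted p = 0.994). Cav2 thus was not separated among the treated groups, and in Water-Ethanol against NW 0 of the 10 genes had all mice of the first group below those of the second, where 4.79% of all genes did.

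Slco1c1, which lies near Slco1a4, carries thyroxine into the brain and is also expressed by astrocytes. Its normalized counts were 2028, 2295, 2339 and 2274 in WW, 2179, 2211, 2091 and 2144 in NW, 2060, 2118, 2204 and 2148 in Water-Ethanol and 2117, 2293, 2092 and 2121 in NE. WW replicate 1 was the lowest of the 16 mice, and every treated group overlapped WW. The log2 fold change against WW was -0.05, -0.06 and -0.05 in NW, Water-Ethanol and NE, and the 3 intervals together ran from -0.17 to 0.06 (edgeR adjusted p = 0.806, 0.476 and 0.651). The ratio of Slco1a4 to Slco1c1 counts was 1.13 ± 0.104 (SD, n = 4) in WW, 1.07 ± 0.0349 in NW, and in Water-Ethanol and NE it was 0.996 ± 0.0854 and 0.941 ± 0.034. It was 1.04 to 1.12 in the NW mice and 0.903 to 0.98 in the NE mice, which do not overlap. The ratio is given without a test, since Slco1a4 was chosen by its values in these mice.

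Other genes near Cav2 and Slco1a4 give the surroundings of these values. Within 500000 bases of Cav2, the log2 fold changes against WW in NW, Water-Ethanol and NE were -0.18, 0.03 and -0.05 for Tes, -0.07, -0.14 and 0.01 for Met, -0.11, -0.10 and -0.12 for Capza2 and 0.05, 0.23 and 0.15 for St7. Around Slco1a4, those of Slco1a5, a transporter of the same subfamily, were 0.08, -0.36 and -0.41, and those of Slco1b2, a liver transporter of the wider family, were -0.13, 0.43 and 0.79. The other genes there with values were Pde3a (-0.01, 0.04 and -0.14), Pyroxd1 (0.01, -0.06 and -0.15) and Recql (-0.08, -0.03 and -0.14). All values of these neighbours are given without read counts, intervals or tests. As a description, the members of the same family had values of both signs.

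Abcb1a encodes P-glycoprotein, the main drug efflux pump of the barrier, and was the gene closest to a call among the 8 that were tested. It (ENSMUSG00000040584) spans chr5:8660092-8748570 on the plus strand with 28 exons. Its normalized counts in replicates 1 to 4 were 1637, 1501, 1581 and 1619 in WW and 1514, 1582, 1506 and 1556 in NW. They were 1374, 1513, 1463 and 1388 in Water-Ethanol and 1376, 1379, 1440 and 1413 in NE. All NE mice lay below all WW and all NW mice, as for 5.51% and 3.03% of genes, and so did 3 of the 4 Water-Ethanol mice against WW. In NE against WW the log2 fold change was -0.17 (standard error 0.0409, 95% interval -0.26 to -0.08), a change of -11.4%, with an adjusted p = 0.0825 by edgeR's quasi-likelihood test. DESeq2 gave an adjusted p = 0.0195, and the edgeR value after the GC correction was -0.15 with an adjusted p = 0.228. In NE against NW it was -0.14 (-0.23 to -0.04, edgeR adjusted p = 0.268), and in Water-Ethanol against WW it was -0.14 (-0.24 to -0.04, edgeR adjusted p = 0.139). The value in NW against WW was -0.04 (-0.14 to 0.06, edgeR adjusted p = 0.831). Of the 150-base stretches of its transcript, 4.41% also occur in its near copy Abcb1b, and 0% of those of the other 9 genes occur in another gene.

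Slc2a1 (GLUT1) is the glucose carrier of the barrier, and Mfsd2a takes up lysolipids with omega-3 fatty acids and holds down caveolar transcytosis. Both lie on chromosome 4, Slc2a1 (ENSMUSG00000028645) at chr4:119108745-119137329 on the plus strand with 10 exons and Mfsd2a (ENSMUSG00000028655) at chr4:122946851-122961188 on the minus strand with 14. Normalized counts of Slc2a1 were 2643, 2841, 2804 and 2839 in WW, 2662, 2512, 3018 and 3139 in NW, 2817, 3132, 3329 and 2988 in Water-Ethanol and 3015, 3005, 3109 and 2588 in NE. Against WW, 3 of 4 Water-Ethanol mice and 3 of 4 NE mice were above all mice of that group, and the lowest mouse of NE was below all of them. The log2 fold change of Slc2a1 in Water-Ethanol against WW was 0.14 (0.04 to 0.25, edgeR adjusted p = 0.152). Normalized counts of Mfsd2a were 839, 854, 898 and 897 in WW, 710, 754, 877 and 845 in NW, 839, 1029, 1034 and 908 in Water-Ethanol and 950, 842, 907 and 815 in NE. Its group means were lowest in NW and highest in the Water-Ethanol group. The log2 fold change between these was 0.26 (0.08 to 0.43, edgeR adjusted p = 0.163), and 3 of 4 Water-Ethanol mice lay above all NW mice. Against WW, Mfsd2a had -0.13 in NW (adjusted p = 0.652), 0.13 in Water-Ethanol (adjusted p = 0.31) and 0.01 in NE (adjusted p = 0.926), all by edgeR.

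Cldn5 and Ocln encode claudin-5 and occludin, strands of the tight junction. Cldn5 (ENSMUSG00000041378) has 1 exon at chr16:18776847-18778262 on the plus strand, and Ocln (ENSMUSG00000021638) has 9 at chr13:100497367-100552498 on the minus strand. Normalized counts of Cldn5 were 1102, 1082, 1197 and 1242 in WW, 1348, 1254, 1025 and 1159 in NW, 1243, 1215, 1131 and 1053 in Water-Ethanol and 1197, 1411, 1222 and 1195 in NE. Its highest log2 fold change against WW, in NE, was 0.12 (-0.02 to 0.26, edgeR adjusted p = 0.357), and it was 0.06 without NE replicate 2 and 0.04 after the GC correction. Normalized counts of Ocln were 443, 491, 438 and 413 in WW, 434, 495, 431 and 457 in NW, 457, 473, 491 and 461 in Water-Ethanol and 422, 456, 454 and 396 in NE. All 4 NE mice lay below all 4 Water-Ethanol mice for Ocln, with the highest NE mouse at 456 and the lowest Water-Ethanol mouse at 457, and 1.55% of genes had such a separation. That log2 fold change was -0.13 (-0.26 to 0.01), with an adjusted p = 0.834 by edgeR and an exact permutation p = 0.0286. Against WW the log2 fold changes of Ocln were 0.03, 0.08 and -0.05 in NW, Water-Ethanol and NE (edgeR adjusted p = 0.943, 0.529 and 0.775).

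Flt1 (VEGFR1) binds VEGF and acts largely as a decoy for it. The gene (ENSMUSG00000029648) spans chr5:147562196-147725988 on the minus strand with 30 exons. Its normalized counts were 2131, 2291, 2310 and 2129 in WW, 1996, 2261, 2145 and 2379 in NW, 2103, 2147, 2170 and 1980 in Water-Ethanol and 1983, 2158, 2144 and 2161 in NE. The groups overlapped in every comparison. Its log2 fold changes against WW were -0.01, -0.07 and -0.07 in NW, Water-Ethanol and NE (edgeR adjusted p = 0.97, 0.375 and 0.458), and the intervals together ran from -0.17 to 0.11.

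Of the 8 genes tested against WW, 0 passed the threshold in each of NW, Water-Ethanol and NE by edgeR's quasi-likelihood test, where 0%, 0.457% and 0.313% of all genes passed. At an unadjusted p under 0.05, the counts of the 8 were 0, 2 and 1 in these groups, against 8.44%, 19.3% and 17.5% of all genes. Of the 10 genes, 0 passed the adjusted threshold in NE against NW, NE against Water-Ethanol and Water-Ethanol against NW, where 0%, 0% and 0% of all genes passed. At an unadjusted p under 0.05 the counts were 2, 0 and 2 of 10, against 11.9%, 5.80% and 17.0% of all genes. DESeq2 called 1 of 8 genes (Abcb1a) in NE against WW and 1 of 10 (Slco1a4) in NE against NW, where it called 507 (4.30%) and 93 (0.765%) of the genes to which it gave an adjusted p. Slco1a4 had been chosen by its values in these mice, so its place in the counts of NE against NW is descriptive. A test of whether nicotine and ethanol together differed from the sum of each alone, in all 16 mice, called 0 of 15592 genes by edgeR and 1054 (6.76%) at an unadjusted p under 0.05. For the 8 genes its adjusted p ran from 0.811 to 0.993.

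**Figure D3:**
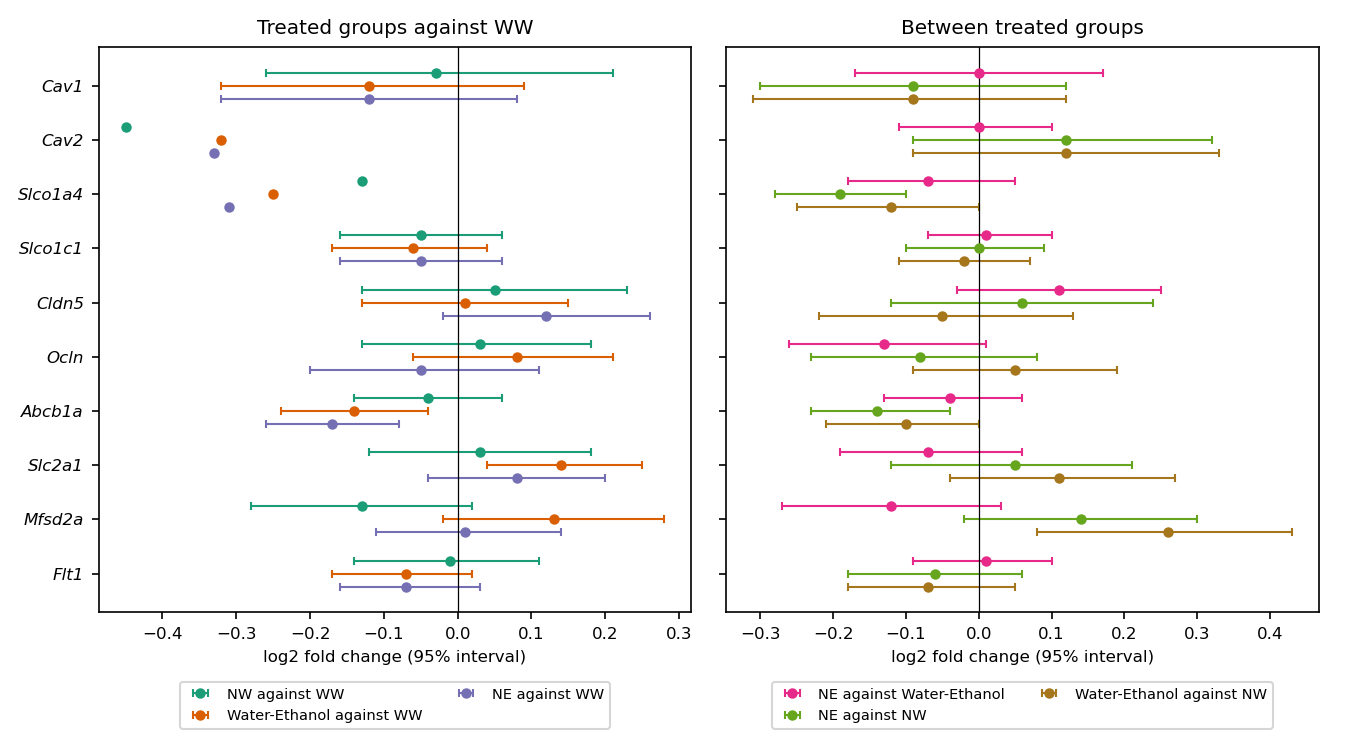
Log2 fold changes of the 10 barrier genes in 6 comparisons, on the left against WW and on the right between treated groups, with 95% intervals as bars. Cav2 and Slco1a4 against WW have no bars because these values chose the genes, and the intervals of Abcb1a in NE and Water-Ethanol and of Slc2a1 in Water-Ethanol lie off 0 on the left.

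With each group's mean removed, the 10 genes did not vary together as a block. Over the 16 mice the median Pearson's r of the 45 pairs was 0.167 (range -0.491 to 0.814), 32 of 45 were above 0, and 0 of 45 had a Benjamini-Hochberg adjusted permutation p under 0.05 while 3 had an unadjusted one. Slc2a1 and Mfsd2a were the most alike pair, with r = 0.814 (permutation p = 0.00469, adjusted p = 0.211), Spearman's rho = 0.856 (permutation p = 0.00271, adjusted p = 0.122) and r = 0.842 without the 2 mice farthest from the median of Slc2a1. Slco1a4 and Abcb1a had r = 0.658 (permutation p = 0.0484, adjusted p = 0.55) and rho = 0.603 (permutation p = 0.0532, adjusted p = 0.62), and r = 0.525 without the 2 farthest mice. Cav2 and Cav1 had r = -0.155, Cav2 and Slco1a4 r = -0.146 and Slco1a4 and Slco1c1 r = 0.0224. The neighbours on chromosome 6 thus had no sizeable correlation, at 16 mice.

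**Figure D4:**
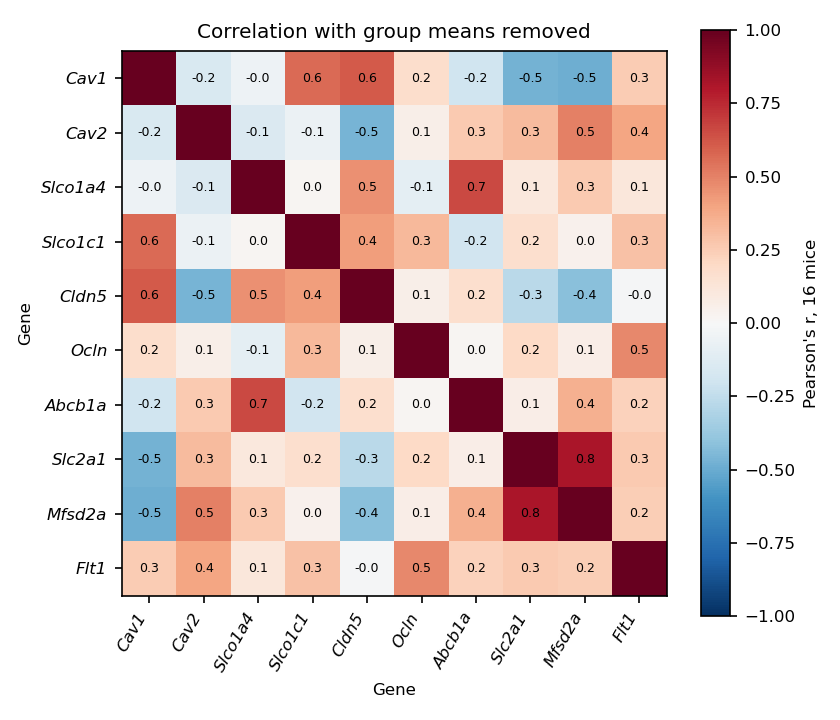
Pearson's r between each pair of the 10 barrier genes over 16 mice after removal of group means, coloured from -1 to 1. The pair Slc2a1 and Mfsd2a is the highest at 0.814, and Cav2 has r near 0 with Cav1 and Slco1a4.

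Among all 15592 genes compared, those most like Cav2 by the same measure were Lcorl (r = 0.928), Peli1 (0.914), Pcnp (0.909), Yaf2 (0.908) and Tmx1 (0.906), as a description over 16 mice. The ligase gene Peli1 and the other 4 are expressed in many cell types, and Lcorl, Peli1, Pcnp, Yaf2 and Tmx1 have transcript GC contents of 36.7%, 39.2%, 41.2%, 45.6% and 40.9% against a median of 49.8% over genes tested. Of the other barrier genes, Mfsd2a was the most like Cav2, at r = 0.501 and place 1847 among all genes. Those most like Slco1a4 were 1700010I14Rik (r = 0.895), Gm10421 (0.857), Rtp4 (0.845), 1700001O22Rik (0.84) and Pnlip (0.836), with mean normalized counts of 25.4, 19.3, 56.8, 63.5 and 14.6. These are low counts, in which counting error is large. Abcb1a held place 75 for Slco1a4.

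Genes of the endothelial cell itself were tested next. The list of 18 endothelial identity genes (for example Pecam1, Erg and Robo4) had a median log2 fold change of 0.03, -0.02 and -0.05 in NW, Water-Ethanol and NE against 0.01, 0.00 and 0.00 over all genes tested. By edgeR's quasi-likelihood test 0 of 18 passed in each. Their summed normalized counts were 22096 to 24113 in WW, 22182 to 23627 in NW, 20737 to 21754 in Water-Ethanol and 20510 to 23588 in NE. By this sum, in which the highest genes weigh most, Water-Ethanol lay below WW and the other treated groups overlapped it. With each gene weighed equally, as the mean of log2 levels centred over the 16 mice, Water-Ethanol overlapped WW. That mean was -0.07 to 0.07 in WW and -0.05 to -0.00 in Water-Ethanol. The gene with the highest value was Sox18, an endothelial transcription factor, with normalized counts of 209, 193, 220 and 237 in WW and 269, 282, 293 and 275 in NE, which do not overlap, as for 5.22% of genes higher in NE. Its log2 fold change was 0.38 in NE (standard error 0.0786, adjusted p = 0.0594 by edgeR), 0.27 in Water-Ethanol (adjusted p = 0.12) and 0.15 in NW (adjusted p = 0.697). Itm2a had the lowest value, at -0.22 in NE (edgeR adjusted p = 0.0629) and -0.21 in Water-Ethanol (adjusted p = 0.113). At an unadjusted p under 0.05 by edgeR, Itm2a, Ptprb, Bsg and Cd34 were lower in Water-Ethanol, and Itm2a and Ptprb in NE. Sox18 was higher in both, where 19.3% and 17.5% of all genes passed in either direction. Without WW replicate 4, 1 of 18 genes passed in Water-Ethanol and 1 of 18 in NE, both higher than in WW, where 2.97% and 0.962% of all genes passed as higher. In NW the highest value was that of Ushbp1, at 0.31 (edgeR adjusted p = 0.621).

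Among 19 further barrier transporters, 1 was called lower in Water-Ethanol and 1 higher in NE by edgeR, and 0 in NW, where 0.183% of all genes were called lower in Water-Ethanol and 0.196% higher in NE. Slc16a1 (MCT1), the carrier of lactate and ketone bodies, had normalized counts of 1733, 1803, 1757 and 1641 in WW and 1502, 1437, 1419 and 1371 in Water-Ethanol. It fell by 0.27 on the log2 scale in Water-Ethanol (standard error 0.0439, edgeR adjusted p = 0.0357) in 4 of 4 mice, and its log2 fold change was -0.21 in NE (edgeR adjusted p = 0.0593) and -0.14 in NW (adjusted p = 0.559). Slc6a6, the taurine transporter, had normalized counts of 5130, 4955, 4917 and 5354 in WW and 6299, 6062, 6292 and 5976 in NE. It rose in NE, by 0.28 on the log2 scale (standard error 0.0375, edgeR adjusted p = 0.0259), in 4 of 4 mice, and had 0.18 in Water-Ethanol (adjusted p = 0.129) and 0.06 in NW (adjusted p = 0.786). Both genes are also expressed outside endothelial cells. Both calls held after the GC correction (adjusted p = 0.0459 for Slc16a1 and 0.0465 for Slc6a6), were lost without some mice (adjusted p up to 0.14 for Slc16a1 without WW replicate 3 and 0.169 for Slc6a6 without NE replicate 3), and passed in 8 and 9 of 17 alternatives. The amino acid carrier gene Slc38a5 had the largest value of the list in NW, 0.24 (edgeR adjusted p = 0.74), and in Water-Ethanol had -0.29 (adjusted p = 0.277). There Slc40a1, the iron exporter, also had -0.29 (adjusted p = 0.0858), and it is named after its values were seen. Without WW replicate 4, 2 of the 19 were called lower in Water-Ethanol, and in NE 1 was called lower and 1 higher, against 2.20%, 0.878% and 0.962% of all genes. The median of the 19 was 0.02, -0.05 and -0.02 in NW, Water-Ethanol and NE.

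Of the other pathway lists, 0 genes passed by edgeR in the comparisons with WW. The 8 genes of caveolae and transcytosis, which include the cavins and clathrin, had medians of 0.05, 0.04 and 0.02 in NW, Water-Ethanol and NE, with the largest values in Sdpr (cavin-2, -0.26 in NW, adjusted p = 0.419), Cltc (clathrin heavy chain, -0.20 in Water-Ethanol, adjusted p = 0.109) and Plvap (a protein of fenestral and caveolar diaphragms, 0.23 in NE, adjusted p = 0.282). The 14 junction genes had medians of 0.01, 0.10 and 0.05, with the largest values in Esam (an endothelial adhesion molecule, 0.13 in NW, adjusted p = 0.671) and in the tight junction gene Marveld3 (0.63 in Water-Ethanol, adjusted p = 0.202, and 0.25 in NE, adjusted p = 0.723). Marveld3 had low normalized counts, at 9.44 to 17.6 in WW and 16.9 to 21.2 in Water-Ethanol. The mean centred log2 level of the 14 was 0.03 to 0.12 in Water-Ethanol, above the -0.13 to 0.02 in WW, while their summed counts overlapped. At an unadjusted p under 0.05 by edgeR, Cgn, Cgnl1, Marveld3 and Mllt4 were higher and Jam2 lower in Water-Ethanol, where 19.3% of all genes passed. Without WW replicate 4, 1 of the 8 caveolae and transcytosis genes was called lower in Water-Ethanol, against 2.20% of all genes, and 0 of the 14 junction genes were called.

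The 12 genes of VEGF and angiopoietin signalling had medians of 0.00, -0.02 and 0.01, with the largest values in the receptor genes Tie1 (0.18 in NW, adjusted p = 0.621), Kdr (-0.21 in Water-Ethanol, adjusted p = 0.117) and Nrp2 (0.12 in NE, adjusted p = 0.354), by edgeR. The 19 genes of the WNT barrier programme had medians of -0.03, -0.03 and 0.02, with the largest values in the receptor gene Fzd4 (-0.24 in NW, adjusted p = 0.518), the pericyte transcription factor gene Foxf2 (0.21 in Water-Ethanol, adjusted p = 0.218) and the effector gene Lef1 (-0.20 in NE, adjusted p = 0.42). The medians of both lists lay within 0.04 of that of all genes. At an unadjusted p under 0.05 the count was 0 of 12 and 4 of 19 in NW, 2 and 4 in Water-Ethanol, and 0 and 0 in NE, against 8.44%, 19.3% and 17.5% of all genes.

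**Figure D5:**
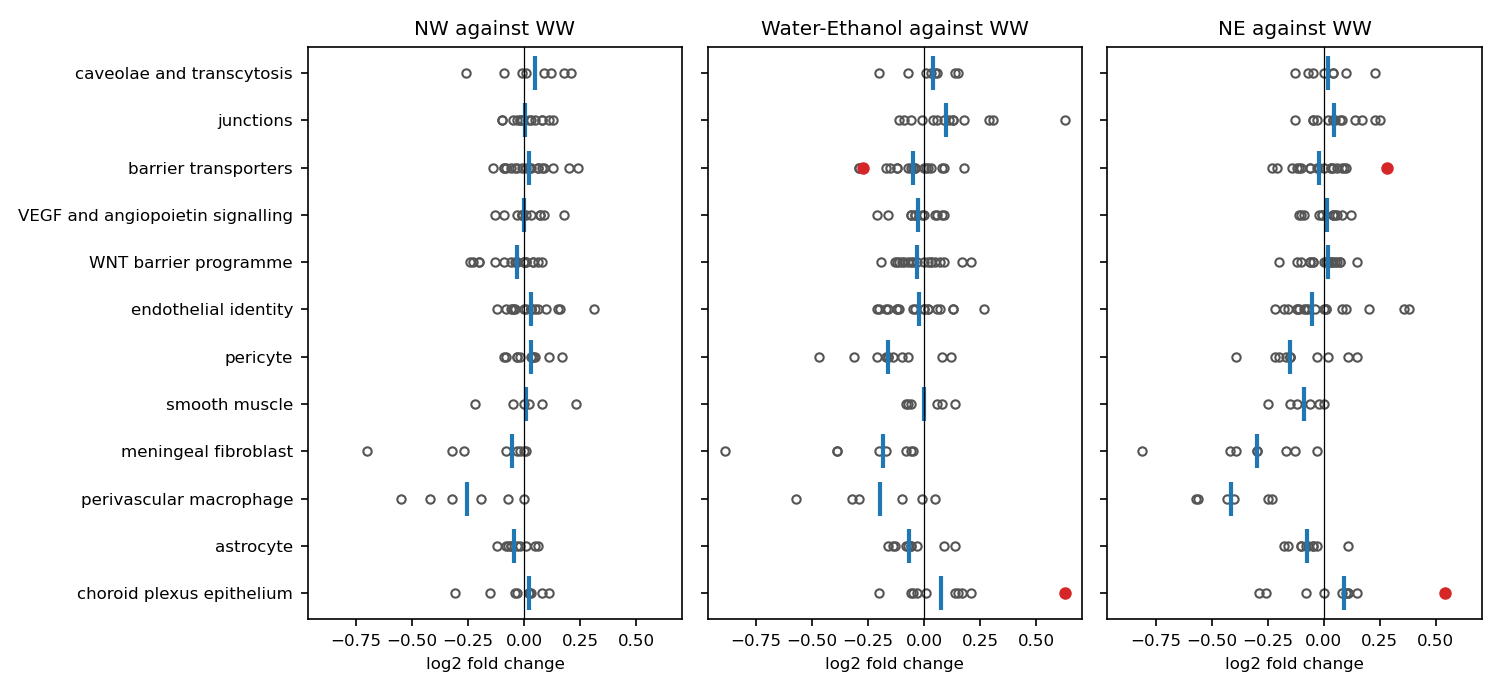
Log2 fold changes against WW of the genes of 12 lists (circles), with the list median as a blue bar and genes that passed an adjusted p of 0.05 in red, in the 3 treated groups. The red points are Slc16a1 and Slc6a6 among barrier transporters and Kcnj13 among choroid plexus genes, and medians of pericyte, meningeal and macrophage genes lie left of 0 in NE.

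Pericyte and meningeal fibroblast markers had lower medians in Water-Ethanol and NE than in NW. Slco1a4 and Abcb1a also had their lowest means in those groups, but Cav2 had its lowest in NW, at 1096 normalized counts. Means of Cav2 were 1193 in Water-Ethanol and 1191 in NE. By smaller amounts, astrocyte, endothelial identity, smooth muscle, olfactory bulb, caveolae and barrier transporter genes also had lower medians in Water-Ethanol and NE than in NW. The part of any of these cell types in the values of Slco1a4, Abcb1a and Cav2 was not tested. The 11 pericyte genes summed to 7109 to 7389 normalized counts in WW, 6806 to 7725 in NW, 6443 to 6657 in Water-Ethanol and 6583 to 6808 in NE. Water-Ethanol and NE lay below WW, and NW overlapped it. Their mean centred log2 levels were separated too, at 0.02 to 0.10 in WW, -0.13 to -0.05 in Water-Ethanol and -0.09 to -0.01 in NE. Such a separation was seen for 5.68% and 5.51% of single genes in Water-Ethanol and NE, and no share was computed for lists. Of the 11, 0 passed the adjusted threshold in any group by edgeR, with medians of 0.03, -0.16 and -0.15 and 0, 4 and 7 genes at an unadjusted p under 0.05, against 8.44%, 19.3% and 17.5% of all genes. Among the 7 in NE, Notch3 was higher than in WW, at 0.15 (edgeR unadjusted p = 0.0245), and the others were lower. Kcnj8, a potassium channel of pericytes, had the largest values at -0.47 in Water-Ethanol (adjusted p = 0.139) and -0.39 in NE (adjusted p = 0.201). The 8 meningeal fibroblast genes had medians of -0.06, -0.18 and -0.30 and summed to 6336 to 9454 in WW and 6019 to 6548 in NE, and Col1a1, a fibrillar collagen, had -0.70, -0.89 and -0.81 (edgeR adjusted p = 0.594, 0.154 and 0.212). Normalized counts of Col1a1 were 1165, 632, 2009 and 604 in WW, 595 to 811 in NW, 534 to 712 in Water-Ethanol and 543 to 660 in NE. Only WW replicates 1 and 3 lay above all treated mice. The 6 perivascular macrophage genes had medians of -0.25, -0.20 and -0.41 with summed counts of 414 to 464 in WW and 242 to 394 in NE, with 0 calls. Their mean centred log2 levels overlapped, at 0.00 to 0.30 in WW and -0.64 to 0.14 in NE. Without WW replicate 4, 2 pericyte genes and 1 meningeal gene were called lower in Water-Ethanol, where 2.20% of all genes were. No marker of these lists was at 0 in every mouse.

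The 6 smooth muscle genes had medians of 0.01, -0.00 and -0.09 and the 10 astrocyte genes of -0.05, -0.07 and -0.08, with 0 calls by edgeR in each. Astrocyte genes summed to 179974 to 192249 normalized counts in WW, 175130 to 187239 in NW, 171454 to 177953 in Water-Ethanol and 170379 to 181592 in NE. Water-Ethanol thus lay below WW in this sum too. Their mean centred log2 levels overlapped, at -0.01 to 0.10 in WW and -0.05 to 0.02 in Water-Ethanol. Among 10 choroid plexus genes, whose epithelium forms the blood to cerebrospinal fluid barrier, the potassium channel gene Kcnj13 rose in Water-Ethanol (log2 fold change 0.63, edgeR adjusted p = 0.0357) and in NE (0.54, adjusted p = 0.0372), where 0.274% and 0.196% of all genes were called higher, and the other 9 did not pass. Kcnj13 had normalized counts of 172 to 224 in WW, 175 to 209 in NW, 277 to 324 in Water-Ethanol and 273 to 307 in NE. Its NE call was lost after the GC correction (adjusted p = 0.0524), and both were lost without some mice (adjusted p up to 0.11 in Water-Ethanol, without WW replicate 3, and 0.176 in NE, without NE replicate 3). The median of the 10 was 0.02, 0.08 and 0.09. Cerebellar granule cell genes had medians of 0.00, 0.23 and 0.17, or -0.20, -0.03 and -0.10 without WW replicate 4 and 0.17 in NW without NW replicate 3, and olfactory bulb genes of -0.29, -0.37 and -0.34, with 0 calls. Olfactory bulb genes summed to 3037 to 3154 normalized counts in WW, 1965 to 3008 in NW, 1599 to 3302 in Water-Ethanol and 1791 to 3017 in NE. The lowest mice were NW replicate 4, Water-Ethanol replicate 3 and NE replicate 3. Whether these brains held less olfactory bulb was not tested. Without WW replicate 4, 1 choroid plexus gene was also called lower in Water-Ethanol and 1 in NE, and 1 granule cell gene lower in Water-Ethanol, against 2.20% and 0.878% of all genes. The haemoglobin genes Hba-a1, Hba-a2, Hbb-bs and Hbb-bt were at 0 reads in the count table, while the FPKM table gave Hba-a1 29.7 to 47.1 in WW, 33.6 to 70.2 in NW, 37.4 to 56 in Water-Ethanol and 18 to 61.7 in NE. The groups overlapped in this measure of blood.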

How the data were processed

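RNA-seq was measured in 16 whole mouse brains, grouped by the labels into 4 groups of 4. The authors trimmed reads with Trimmomatic 0.32, aligned them with TopHat2 to GRCm38 (mm10) and deposited whole read counts for each gene, not normalized. A second table deposited by the authors holds FPKM from the Cufflinks tools, which carry no read depth. The counter and its use of strand are not given in the sources used here, and the library kit is named as unstranded in the labels and as stranded in the methods.

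Counts were tested with edgeR 4.0.16 (quasi-likelihood test, TMM factors, default filter on low counts) in R 4.3.3, in fits of the groups compared, with Benjamini-Hochberg adjustment over all genes tested and a threshold of 0.05. Standard errors are the fold change over the root of F. Alternatives were RLE factors, DESeq2 1.42.0, no filter, a minimum CPM of 1 in every mouse, limma 3.58.1 on log2(FPKM + 1) and log2(FPKM + 0.1), all mice in 1 fit, a GC correction (spline with 5 degrees of freedom, 98.1% of genes with a value) and leaving out each mouse. For single genes, normalized counts were compared by exact two-sided permutation, and correlations by 100000 permutations within groups (scipy 1.17.1 and numpy 2.4.6 in Python 3.11.15; tables with pandas 2.3.3, plots with matplotlib 3.10.9). The fits were tested on simulated data. The 10 genes and the 15 lists were chosen with earlier results of these data known. Genes named are the 10, the genes of each list that passed in any comparison or had the largest change against WW, the 5 most like Cav2 and Slco1a4 and Gabra6, and not every such gene is reported here. Other neighbours on the chromosome, and some level markers, were named after their values were seen. Promoters are those of RefSeq on GRCm38.p6, and all 10 genes matched by symbol.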

Additional observations from a re-analysis of the deposited data

Results flagged for a closer look

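Within groups of 4, 1 mouse stood far from the other 3 in 4 of the 40 combinations of gene and group, where chance gives about 1 in 20. Slco1a4 was lowest in NW replicate 4, at 2232 normalized counts, with 0.853 of the group's range between it and the next mouse. Slco1c1 was highest in NE replicate 2, at 2293 (0.858 of the range), and Cldn5 was highest in the same mouse, at 1411 (0.878). Flt1 was lowest in NE replicate 1, at 1983 (0.903).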

How the results depend on the processing

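Of 1020 alternative values for the 10 genes, 1016 stayed on their side of the threshold or within 1 SD of the reported value, 4 did not, and 57 differed in sign, among them none of a called value. DESeq2 called 1 of the 8 genes (Abcb1a) in NE against WW and 1 of the 10 (Slco1a4) in NE against NW, where edgeR called 0 in each, and the cause was not tested. Slco1a4 had been chosen by its values in these mice. After the GC correction Slco1a4 had -0.03 in NW and Cav2 -0.25 in NE against WW. The number of all genes called moved more. In Water-Ethanol against WW it was 70, 606 with DESeq2, 143 without a filter, 28 with all mice in 1 fit, 36 after the GC correction, 0 with limma on FPKM and 0 to 797 when single mice were left out. In NE against WW it was 48, 507 with DESeq2, 9 after the GC correction, 26 with limma on FPKM and 0 to 283 when single mice were left out, in both cases highest without WW replicate 4. In NW against WW it was 0, 121 with DESeq2 and 112 with all mice in 1 fit. Between treated groups edgeR called 0, DESeq2 93 in NE against NW, 405 in Water-Ethanol against NW and 2 in NE against Water-Ethanol, and the fit of all mice 57, 262 and 0. Without NW replicate 3, 173 were called in Water-Ethanol against NW, and 42 without a filter. Of 288 recomputed list medians, 18 changed sign. Those of the granule cell genes went from 0.23 to -0.03 in Water-Ethanol and from 0.17 to -0.10 in NE against WW without WW replicate 4, and from 0.13 to -0.04 in NE against NW without NW replicate 3. No paired analysis was possible because the labels give the groups no shared replicate numbers. The alternatives for list genes and the lists without WW replicate 4 or NW replicate 3 were added after the data were examined.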
